A study of Homo sapiens with 16 samples.

Results

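The 9 genes examined here, Ccr1, Ccr2, Ccr6, Cxcr2, Cxcr3, Cxcr4, Cxcr6, Cx3cr1 and Ackr3, encode chemokine receptors and were taken by name from the 32285 genes of the deposited UMI tables. All 9 were found. For each receptor, the UMIs of all cells that carry a given deposited cluster name were summed within an experiment and expressed per 1000000 UMIs of those cells (CPM), with the range over the captured pools.

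The study profiled single cells of mouse mammary tumors from female FVB mice of 6 weeks, which had received chunks of 25 mm3 of the tumor lines LPA1-T22 (T22) or LPA1-T127 (T127) in the mammary fat pad. Both lines were derived from mice with transgenic expression of the LPA1 receptor in the mammary epithelium, so each model stands for 1 transplanted line and not for tumors that arose independently. Olaparib, an inhibitor of the DNA repair enzyme PARP, or vehicle was given by mouth at 50 mg/kg daily, with mice assigned to treatment 14 days after transplantation for T22 and 10 days for T127. In the short-term experiment, tumors were taken after 4 and 8 days of treatment and T22 and T127 tumors were captured apart, each in 4 pools. In the long-term experiment, tumors treated for 20 days were captured together in 8 pools. Each line had grown alone or with the other line on the opposite side of the mouse, where T22 was transplanted 14 days before T127. Every pool mixes tagged tumors of vehicle and olaparib treated mice, and no table used here ties a cell to its tumor. Treatments were therefore not compared, and each experiment is 1 group. The labels do not say which tumors a pool holds. Ranges over pools can thus include differences between tumors and treatments and, in the long-term pools, between lines. The pools of an experiment could also be repeated captures of the same mix of tumors. In that case neither their range nor a lack of overlap between pools would measure the spread between tumors. The labels name the organism as human, whereas the genes and the build are those of the mouse.

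Chemokine receptors are membrane proteins coupled to G proteins that let a leukocyte move toward a source of chemokine, and the set of receptors on a cell decides which ligands it can follow. Monocytes classically leave the bone marrow through Ccr2 and gain Cx3cr1 as they settle as patrolling monocytes or macrophages, neutrophils follow Cxcr2 ligands, and activated T and NK cells follow Cxcr3 and Cxcr6 ligands into inflamed tissue and tumors. Cxcl12 has a signalling receptor, Cxcr4, and an atypical one, Ackr3, which takes the ligand up and degrades it.

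After shared barcodes were counted once, the long-term pools held 25723 cells of 30845 deposited, the short-term T22 pools 15094 and the short-term T127 pools 8007. In the long-term experiment 3939 cell barcodes were found in both pool 1 and pool 2, 987 in pools 1 and 3 and 1082 in pools 2 and 3, while any of the other 25 pairs had 1 to 8 in common. Median depth per pool was 9548.5 to 11720.5 UMIs per cell in the long-term, 7730 to 8528 in the T22 and 22712 to 26017 in the T127 pools. Of 22 cluster names, 21, 17 and 14 reached 50 cells and were ranked, and 10 did so in both short-term models. Most names held up against their markers, but some did not. CD14-IL1B carried dendritic genes (Xcr1 186 CPM in the long-term pools), and CD14-PF4 carried neutrophil genes in the short-term pools, given below with Ccr6. CD16-CDKN1C had Cdkn1c at 1.93 CPM against 128 in i_CAF. This sets the name against Cdkn1c alone and not against Fcgr4, the other gene of its marker list. CD4_Tcm-TCF7 held Cd4 67.6, Cd8a 90.9, Trdc 138 and Ncr1 185 CPM and is therefore called by its deposited name only. No cluster is named for neutrophils, conventional dendritic cells, mast cells or T cells that make interleukin 17. The red cell genes Hbb-bs and Hba-a1 were found in every ranked cluster, summing to 1312 to 11689 CPM in the long-term, 0.141 to 185 in the T22 and 6.23 to 9079.6 in the T127 pools.

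**Figure D1:**
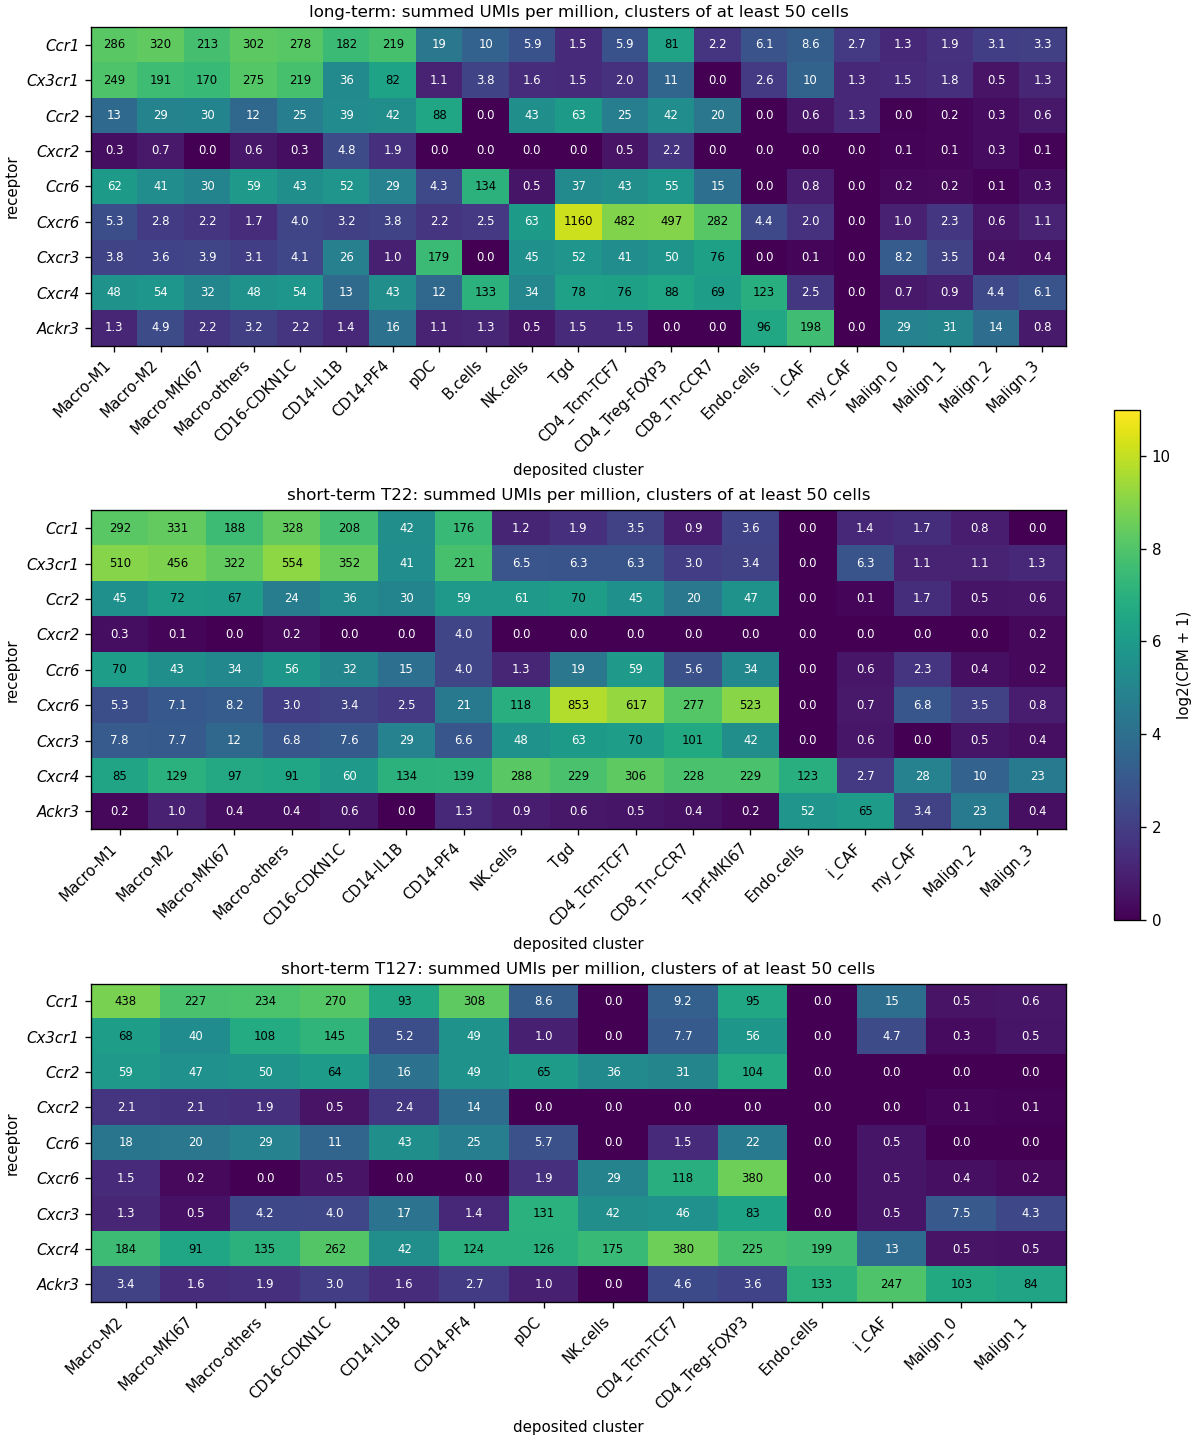
Level of the 9 receptors (rows) in each ranked cluster (columns) of the long-term, short-term T22 and short-term T127 pools, with colour on a log2(CPM + 1) scale and the CPM written in each cell. Ccr1 and Cx3cr1 fill the monocyte and macrophage columns and Cxcr6 the T-cell columns. Ackr3 is seen in i_CAF, endothelial cells, Malign_0, Malign_1 and Malign_2, but is low in my_CAF and Malign_3.

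Ccr1, a receptor of Ccl3, Ccl5 and Ccl6, was carried by the monocyte and macrophage clusters, which held 98.8%, 98.9% and 97.9% of its UMIs in the long-term, T22 and T127 pools. In the long-term pools it was highest in Macro-M2 at 319.7 CPM (13128 UMIs in 3567 cells, lowest pool 284, median 324, highest 345). Macro-others followed at 302 CPM (lowest pool 270.1, median 299.9, highest 345), Macro-M1 at 286 and CD16-CDKN1C at 278. The pool ranges of these 4 clusters overlapped, so that their order is not set by the pools. CD14-IL1B at 182 CPM (155 to 214 over pools) lay below every pool of these 4. CD14-PF4 at 219 CPM (68.8 to 450 over pools) spanned their whole range, and Macro-MKI67 at 213 CPM (176 to 246) touched its lower end. In the short-term pools, Ccr1 in Macro-M2 was 308, 323, 354 and 345 CPM in the 4 T22 and 432, 416, 442 and 465 CPM in the 4 T127 pools. T127 was above T22 in every pool, by 1.32-fold (1.27 to 1.38) over all cells, with the counting interval in brackets. Outside the myeloid cells, regulatory T cells (CD4_Treg-FOXP3) held 81.0 CPM in the long-term and 95.4 CPM in the T127 pools.

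A summed level does not tell many cells with few transcripts from few cells with many, so the share of cells with at least 1 UMI was also taken after each cell had been thinned to 3000 UMIs. Ccr1 was detected in 1891 of 3510 long-term Macro-M2 cells, 53.9% (52.2% to 55.5%). Malignant cells, which served as background for the leukocyte receptors, gave 52 of 6862 cells or 0.758%. Without thinning, which also brings back the cells below 3000 UMIs, the shares were 83.6% and 2.94% at median depths of 11168 and 18461.5 UMIs. Intervals on shares, levels and ratios cover counting error only.

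Cx3cr1, the receptor of fractalkine (Cx3cl1) on macrophages and patrolling monocytes, kept to the same clusters, with 99.0%, 98.9% and 93.9% of its UMIs in them. In the long-term pools Macro-others held 275 CPM (lowest pool 233, median 275, highest 325), Macro-M1 249 (lowest pool 192, median 248, highest 291) and CD16-CDKN1C 219 (lowest pool 171, median 217, highest 254). These neighbours overlapped over pools. Macro-M2 at 191 CPM (lowest pool 176, median 192, highest 211) lay below every pool of Macro-others. Of the clusters with a monocyte or macrophage name, CD14-PF4 at 81.7 and CD14-IL1B, which also carries dendritic genes, at 36.0 CPM lay lowest. Macro-others and Macro-M1 also led in T22, at 554 and 510.1 CPM, followed by Macro-M2 at 456 and CD16-CDKN1C at 352. In T127, CD16-CDKN1C came first at 145 CPM, then Macro-others at 108, and regulatory T cells held 55.8 CPM (52.8, 74.3, 46.5 and 60.1 by pool). The thinned share of Macro-others cells with a Cx3cr1 UMI was 50.6% long-term (1943 of 3841), 72.2% in T22 (812 of 1125) and 21.4% in T127 (44 of 206), against 0.379%, 0.512% and 0.123% of malignant cells. Without thinning these shares of Macro-others cells were 75.8%, 86.1% and 37.1%.

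Ccr2, the Ccl2 receptor by which inflammatory monocytes leave the marrow, was spread over more cell types at lower levels. Plasmacytoid dendritic cells (pDC) held the highest long-term level, 88.3 CPM from 82 UMIs in 170 cells (lowest pool 9.50, median 98.8, highest 126). Gamma delta T cells (Tgd) followed at 62.7 CPM (lowest pool 34.1, median 56.6, highest 115) and NK cells at 43.2 CPM (lowest pool 28.4, median 45.3, highest 61.5), and the pool ranges of all 3 overlapped. Among the long-term myeloid clusters Ccr2 was lowest in Macro-M1 at 12.6 and Macro-others at 11.8 CPM, which led for Cx3cr1, and stood at 41.8 in CD14-PF4 (0 to 70.9 over pools), 38.6 in CD14-IL1B and 28.9 CPM in Macro-M2. In T22, Macro-others was likewise lowest of these clusters for Ccr2 (24.1 CPM) and highest for Cx3cr1. Other short-term clusters did not follow this order, since CD14-IL1B was low for both receptors (Ccr2 30.0 and Cx3cr1 41.1 CPM in T22, 16.1 and 5.24 in T127), T22 Macro-M2 high for both (71.8 and 456) and T127 CD16-CDKN1C highest of the ranked myeloid clusters for both (64.5 and 145). Among the ranked T22 clusters the highest levels were in Macro-M2 (69.8, 66.4, 69.8 and 80.5 CPM), Tgd (84.1, 55.0, 68.4 and 70.0) and Macro-MKI67 (66.6). In T127 they were in regulatory T cells (76.8, 161, 126 and 85.9 CPM, 58 UMIs in all), pDC (48, 74.8, 55.1 and 78.8) and CD16-CDKN1C (80.3, 83.0, 54.2 and 41.3). The leading ranked clusters of both models overlapped over pools. The pDC of T22, with 35 cells too few to be ranked, held 98.2 CPM from 33 UMIs. T and NK clusters held 39.0% of the Ccr2 UMIs in T22 but 8.50% and 7.92% in the long-term and T127 pools, shares that follow the number of such cells as well as their level. Thinned, 23.8% (17.4% to 31.1%) of long-term pDC had a Ccr2 UMI against 0.0583% of malignant cells, and 35.9% did without thinning.

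Cxcr2, through which neutrophils follow Cxcl1, Cxcl2 and Cxcl5, was close to absent from the tables, with 121 UMIs in all long-term cells. CD14-IL1B held 30 of them, 4.80 CPM (lowest pool 0, median 3.25, highest 12.7). In T127, CD14-PF4 held 10 UMIs (0, 0, 19.4 and 21.8 CPM by pool) and Macro-M2 30 (3.32, 1.85, 2.21 and 1.09). After thinning, 6 of 446 long-term CD14-IL1B cells had a Cxcr2 UMI or 1.35% (0.495% to 2.91%), and 4.04% without thinning, against 0.0291% of malignant cells. The few monocyte and macrophage cells with a Cxcr2 UMI also carried neutrophil genes. In 69 such long-term cells, S100a8 was at 4445 CPM against 70.3 in the 15382 cells without, S100a9 at 5549.5 against 37.8 and Retnlg at 925 against 2.10. In the 29 such T127 cells the ratios were 74.7 for S100a8 and 236 for S100a9, whereas Mmp8, a granule enzyme of neutrophils, gave 0.763. The paper found no Fut4 or Cd177 and proposes that neutrophils were not captured, likely through fragility when tumors were dissociated. The part of such loss in the low Cxcr2 counts was not tested.

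Cxcr6, the Cxcl16 receptor of tissue T cells, lay with the T cells. T and NK clusters held 86.9%, 97.2% and 80.7% of its UMIs. Long-term Tgd cells held 1160.1 CPM (1535 UMIs in 207 cells, lowest pool 735, median 1274, highest 1498), and 78.8% (72.3% to 84.4%) of them had a UMI after thinning (80.2% without), against 0.262% of malignant cells. Regulatory T cells (497 CPM, 193 to 815 over pools), CD4_Tcm-TCF7 (482 CPM, 357 to 692) and CD8_Tn-CCR7 (282 CPM, 116 to 675) overlapped each other over pools, and regulatory T cells also reached into the range of Tgd. NK cells lay lower at 62.9 CPM (14.0 to 119) and touched the lowest pool of CD8_Tn-CCR7. In T22, Cxcr6 was 855, 755, 759.6 and 997 CPM in Tgd, 625, 592, 636 and 615 in CD4_Tcm-TCF7, 517, 542, 494 and 538 in proliferating T cells (Tprf-MKI67) and 228, 301, 272 and 303 in CD8_Tn-CCR7. Each of these clusters stood apart from the next over the 4 T22 pools. In T127, where Tgd, Tprf-MKI67 and CD8_Tn-CCR7 did not reach 50 cells, regulatory T cells held 399, 273, 359 and 447 CPM, above every pool of CD4_Tcm-TCF7 at 71.1, 148, 133 and 118.

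Cxcr3, which guides T and NK cells toward the interferon-induced ligands Cxcl9 and Cxcl10, was highest in pDC, at 179 CPM in the long-term (166 UMIs, lowest pool 107, median 149, highest 269) and 131 CPM in the T127 pools (125, 167, 72.0 and 154). In the long-term pools 36.9% (29.4% to 44.9%) of pDC had a UMI after thinning and 48.2% without. CD8_Tn-CCR7 came next in the long-term pools at 75.9 CPM, but its pools ran from 0 to 291 and overlapped those of pDC and of NK cells (44.8 CPM). In T22, whose pDC fell short of 50 cells, CD8_Tn-CCR7 led at 95.5, 92.3, 113 and 107 CPM, above every pool of CD4_Tcm-TCF7 (82.3, 70.9, 57.0 and 69.5) and NK cells (48.6, 46.4, 41.7 and 53.4). In T127, regulatory T cells held 81.6, 149, 86.4 and 34.4 CPM and overlapped with pDC and NK cells.

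Malignant cells of T127 held Cxcr3 at a low level in every pool, and those of T22 lay below it. Malign_0 held 7.36, 5.89, 9.66 and 6.94 CPM in the 4 T127 pools (702 UMIs) and Malign_1 4.59, 3.83, 4.24 and 4.47 (351 UMIs), against 0.524 CPM in Malign_2 and 0.382 CPM in Malign_3 of T22. Because these clusters are large, they held 74.3% of all Cxcr3 UMIs in T127 and 35.2% in the long-term pools, against 0.926% in T22. In T127 Malign_0, Cxcr3 gave 18 UMIs for each UMI of the T-cell list (Cd3e, Cd3d and Trac, 39 UMIs in these cells), beside 0.0247 in T127 CD4_Tcm-TCF7, 10.8 in T127 CD14-IL1B and 69 in T127 pDC, and the part of RNA from other cells was not tested. Per cell the signal was thin, with 68 of 4878 T127 malignant cells or 1.39% at 3000 UMIs and 13.2% without thinning. In T22, 1 of 1954 malignant cells had a Cxcr3 UMI after thinning. The long-term share of pDC above stands beside 1.19% of malignant cells.

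Ccr6, the receptor of Ccl20 on B cells and on T cells that make interleukin 17, was highest in long-term B cells at 134 CPM (106 UMIs in 309 cells, lowest pool 0, median 124, highest 157). Of the B cells 44 reached 3000 UMIs, and 36.4% of these had a Ccr6 UMI (22.4% to 52.2%, 28.5% of all B cells without thinning), against 0.0291% of malignant cells. The bulk of its UMIs nevertheless came from monocyte and macrophage clusters, 94.2%, 70.6% and 95.4% in the long-term, T22 and T127 pools, against 1.44% from long-term B cells. Macro-M1 held 62.3 CPM long-term (lowest pool 48.2, median 64.3, highest 74.6) and 71.6, 75.7, 68.1 and 64.9 CPM in the T22 pools, and Macro-others 59.0 CPM long-term and 53.8, 49.2, 59.9 and 59.6 CPM in T22. Both were within the pool range of B cells once its pool without a UMI is counted, and they overlapped each other in the long-term pools. Thinned, 16.6% of long-term Macro-M1 cells (160 of 965) had a Ccr6 UMI. T and NK clusters held 28.3% of the Ccr6 UMIs in T22, with CD4_Tcm-TCF7 at 58.9 CPM, and 2.19% in T127, where CD14-IL1B led the ranked clusters at 35.6, 28.5, 60.8 and 44.1 CPM. Short-term B cells were too few to be ranked. They held 79.7 CPM in T22 (17 UMIs in 38 cells) and 50.7 CPM in T127 (6 UMIs in 42 cells).

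Cxcr4, the signalling receptor of Cxcl12, was the least confined of the 9. In the long-term pools B cells (133 CPM, lowest pool 113, median 134, highest 204, but 69.2 CPM in the 44 cells of at least 3000 UMIs and 164 in the 265 below), endothelial cells (123 CPM, lowest pool 38.8, median 126.7, highest 191) and regulatory T cells (87.6 CPM, lowest pool 0, median 94.6, highest 242) overlapped, and CD16-CDKN1C and Macro-M2 held 54.3 and 54.3 CPM. Among the ranked T22 clusters the lymphocytes led, with 302, 323, 267 and 334 CPM in CD4_Tcm-TCF7, 276, 312, 257 and 302 in NK cells and 191, 288, 211 and 226 in Tgd. Among those of T127, CD4_Tcm-TCF7 held 319.8, 370.2, 362 and 441 CPM, ahead of CD16-CDKN1C at 262, regulatory T cells at 225 and endothelial cells at 199. B cells, with 38 cells in T22 and 42 in T127, were too few to be ranked. Their Cxcr4 level was 478 CPM in T22 (102 UMIs) and 1013 CPM in T127 (120 UMIs), above CD4_Tcm-TCF7 in both models. Every T127 pool of CD4_Tcm-TCF7 lay above every pool of CD16-CDKN1C. Thinned, 1090 of 2216 T22 and 44 of 86 T127 CD4_Tcm-TCF7 cells had a Cxcr4 UMI, 49.2% and 51.2% (64.6% and 47.1% without thinning), against 3.17% and 0.144% of malignant cells. By level, Malign_2 held 10.0 and Malign_3 22.5 CPM in T22, and Malign_0 and Malign_1 0.500 and 0.452 CPM in T127. T and NK clusters held 10382 Cxcr4 UMIs in T22 and 598 in T127, and the part of their RNA in the malignant values was not tested. In the long-term pools the 4 malignant clusters held 0.676, 0.911, 4.42 and 6.15 CPM from Malign_0 to Malign_3.

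**Figure D2:**
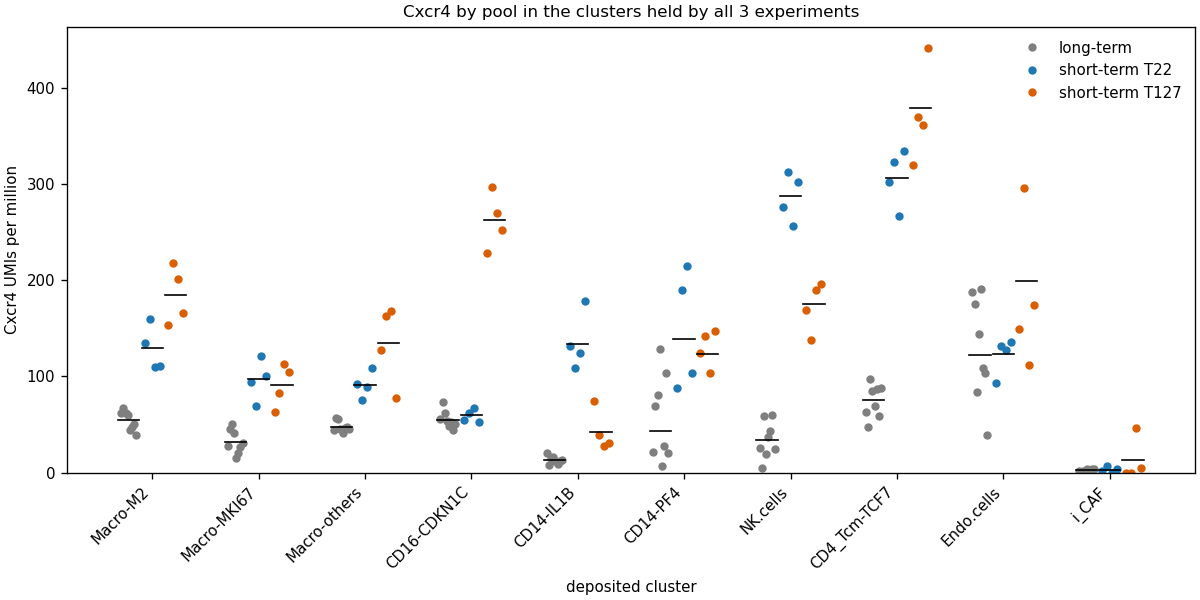
Cxcr4 level in CPM (linear axis) in the 10 clusters with at least 50 cells in both short-term models, with a point for each long-term, T22 and T127 pool and a black line for the level summed over the pools. Long-term points lie below all short-term points in 6 clusters, and T127 lies above T22 in CD16-CDKN1C and below it in CD14-IL1B.

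Ackr3, the scavenging receptor of Cxcl12, belonged to the tissue cells rather than the leukocytes. Inflammatory fibroblasts (i_CAF) held 198 CPM in the long-term pools (2101 UMIs, lowest pool 149, median 196, highest 257), endothelial cells 96.4 (lowest pool 49.9, median 87.1, highest 188), Malign_1 31.5 (lowest pool 20.8, median 29.6, highest 38.6) and Malign_0 28.8 (lowest pool 18.9, median 29.4, highest 44.3). The 2 malignant clusters overlapped each other and lay below every pool of both stromal ones. The malignant clusters of T22 differed between themselves, with Ackr3 at 27.1, 23.9, 18.8 and 21.3 CPM in Malign_2 of the 4 T22 pools and at 0.382 CPM in Malign_3. In T127, Malign_0 held 97.1, 106, 113 and 95.1 and Malign_1 74.1, 87.5, 95.4 and 80.2 CPM. Myofibroblastic fibroblasts (my_CAF), with 3.38 CPM in T22, did not share the level of i_CAF, at 65.3 CPM. Malignant clusters held 55.4%, 66.0% and 95.9% of Ackr3 UMIs in the long-term, T22 and T127 pools. After thinning, 34.3% (30.7% to 38.1%) of long-term i_CAF had an Ackr3 UMI (52.1% without), 9.57% in T22 and 30.6% in T127, and 24.0% of T127 Malign_0 cells did (84.1% without, at a median of 36205 UMIs). B and T cells, taken as background for Ackr3, gave 0.229%, 0.104% and 0.485%.

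**Figure D3:**
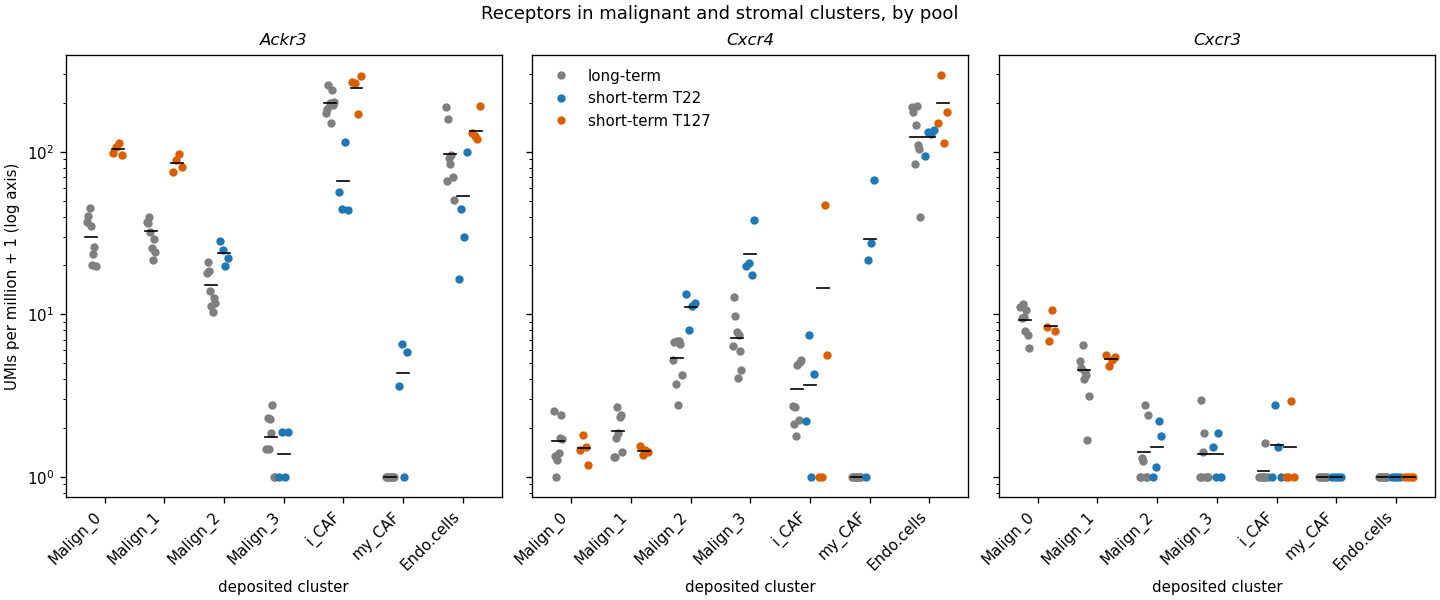
Ackr3, Cxcr4 and Cxcr3 levels (CPM + 1, log axis) in the malignant, fibroblast and endothelial clusters, with a point for each pool coloured by experiment and a black line for the level summed over the pools. Ackr3 is high in i_CAF, endothelial cells and the T127 clusters Malign_0 and Malign_1, Cxcr4 is higher in the T22 than in the T127 malignant clusters, and Cxcr3 shows the opposite order.

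Whether the models differ within a cell type could be asked only in the short-term pools and in the 10 clusters with at least 50 cells in both. A receptor was called different in a cluster where its level changed at least 2-fold on the log2(CPM + 1) scale and the 4 T22 pools did not overlap the 4 T127 pools, given at least 5 CPM in either model. Of the 90 pairs of receptor and cluster 58 passed the filter on level, and 21 were called, 17 higher in T22 and 4 higher in T127. By the same rule 11.2% of all tested gene and cluster pairs were called, 5.38% higher in T22 and 5.78% higher in T127. Counts by receptor were 7 of 9 tested clusters for Cx3cr1, 4 of 5 for Cxcr6, 4 of 7 for Ccr6, 2 of 8 for Cxcr3, 2 of 10 for Cxcr4 and 2 of 2 for Ackr3, and none of 8, 8 and 1 for Ccr1, Ccr2 and Cxcr2. The median log2 ratio of T22 over T127 was 1.21 over the receptors tested in Macro-M2 against -0.08 over all genes there. It was 0.77 against -0.10 in Macro-MKI67, 0.53 against -0.14 in Macro-others, 0.20 against -0.25 in CD16-CDKN1C and 0.77 against -0.21 in CD14-IL1B. In CD14-PF4 it was 0.21 against 0.01, in CD4_Tcm-TCF7 0.53 against -0.05 and in NK cells 0.74 against 0.03. A receptor can pass the filter on level through 1 model alone. In Macro-M2, Cxcr3 (7.69 CPM in T22 and 1.27 in T127) and Cxcr6 (7.14 and 1.55) passed only through T22. So did both in Macro-MKI67 (11.6 and 0.459 for Cxcr3, 8.18 and 0.230 for Cxcr6). Ccr6 in CD4_Tcm-TCF7 (58.9 and 1.54) and Cx3cr1 in NK cells (6.47 and 0) also passed only through T22. Ccr6 in CD14-PF4 (3.96 and 24.7) passed only through T127. Such pairs enter from the side where the receptor is high. The medians, the split of calls between the models and the counts by receptor therefore give no direction for the receptors as a set. In endothelial cells the median was -1.01 against -0.02 (2 receptors tested) and in i_CAF -1.94 against 0.06 (4 receptors). In i_CAF, Ccr1 (1.41 CPM in T22 and 14.5 in T127) and Cxcr4 (2.68 and 13.5) passed only through T127. Cx3cr1 there (6.34 and 4.67) passed only through T22, and Ackr3 alone (65.3 and 247) reached the filter in both models. With 1 transplanted line a model and the pools of each sequenced to their own depth, line, start of treatment and depth cannot be told apart, and no p-value was computed.

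Cx3cr1 was higher in T22 in all 6 compared clusters with a monocyte or macrophage name, of which CD14-IL1B also carried dendritic and CD14-PF4 neutrophil genes. In Macro-M2 the 4 T22 pools held 424, 428, 491 and 488 CPM and the 4 T127 pools 70.9, 65.9, 68.2 and 68.1, a ratio of 6.68-fold (6.23 to 7.18) and a log2 difference of 2.72. Macro-others held 548, 572, 539 and 555 CPM in T22 and 119.5, 80.7, 131 and 91.3 in T127 (5.14-fold, 4.56 to 5.81), and Macro-MKI67 301, 380.1, 266 and 344 and 22.4, 38.4, 54.1 and 44.7 (8.07-fold, 6.90 to 9.48). The gap between the nearest pools of the models was wide in these macrophages and narrower in CD16-CDKN1C, with 337, 326, 351 and 392 against 157, 197, 107 and 136 CPM (2.42-fold, 2.15 to 2.73). CD14-PF4 and CD14-IL1B gave log2 differences of 2.14 and 2.76 at lower levels. That of CD14-IL1B was 2.03 without the third T22 pool, and its pools overlapped once cells were thinned. There the list of Itgam, Cd14, Adgre1 and Csf1r stood at 495 CPM in T22 and 1311 in T127, and the dendritic list at 1599 and 1575. In NK cells Cx3cr1 was 5.72, 4.34, 10.5 and 5.93 CPM in T22 and 0 in each T127 pool. A limit of 3 UMIs for a count of 0, not the exact interval used elsewhere, allows up to 10.5 to 14.1 CPM in a single T127 pool. Over the 4 T127 pools together the same limit allows 3.00 CPM. Of the T22 pools, 3 lay below these single-pool limits and the highest lay at the lowest of them. T22 NK cells held 0.186 Cx3cr1 UMIs for each UMI of the monocyte and macrophage list (Itgam, Cd14, Adgre1 and Csf1r), beside 0.148 to 0.206 in the T22 macrophage clusters and 0.304 to 0.377 in the T22 T-cell clusters, and the list itself stood at 34.8 CPM in NK cells of T22 and 16.0 in those of T127. The NK call was lost with a pseudocount of 10 CPM, and the part of myeloid RNA in it was not tested.

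Per UMI of that list, Macro-M2 held 0.148 Cx3cr1 UMIs in T22 and 0.0157 in T127, and Macro-others 0.180 and 0.0353. Ccr1 in the same cells stood nearer between the models, at 0.108 and 0.101 per list UMI in Macro-M2, 0.106 and 0.0765 in Macro-others, 0.114 and 0.0915 in Macro-MKI67 and 0.116 and 0.0845 in CD16-CDKN1C. Genes of classical monocytes (Ly6c2, Vcan and Plac8) moved against Cx3cr1 between the models. Their summed level was 564 CPM in T22 and 1528 in T127 Macro-M2, 56.7 and 612 in Macro-others, and 344 (309 to 411 over pools) and 2501 (2174 to 2861) in CD16-CDKN1C. The same list also stood at 239.7 and 1275 CPM in NK cells. Dendritic genes likewise stood at 45.3 and 665 CPM in Macro-others. How far a different mix of cells under 1 cluster name enters the Cx3cr1 difference was not tested.

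**Figure D4:**
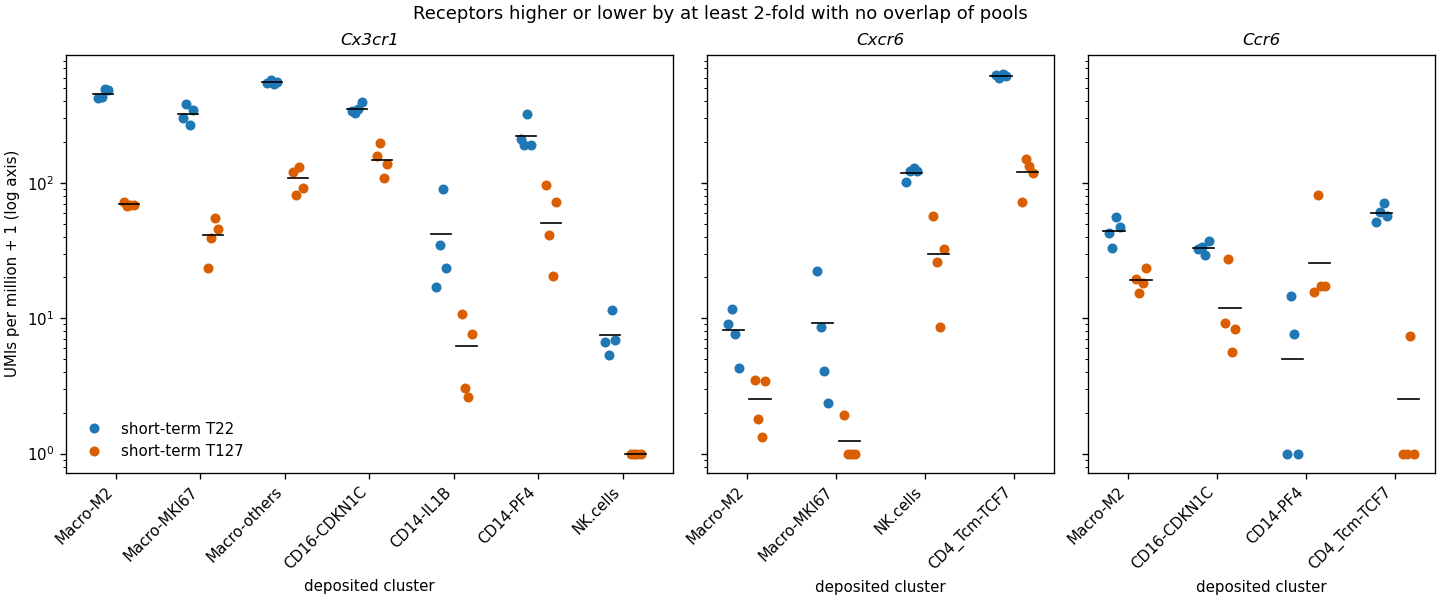
Cx3cr1, Cxcr6 and Ccr6 levels (CPM + 1, log axis) in the clusters called different between the short-term models, with a point for each of the 4 T22 and 4 T127 pools and a black line for the level summed over the pools. The points of the models do not overlap in any cluster shown, and T22 is higher in each except Ccr6 in CD14-PF4.

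Cxcr6 was higher in T22 in CD4_Tcm-TCF7, NK cells, Macro-M2 and Macro-MKI67. In CD4_Tcm-TCF7 the T22 pools held 625, 592, 636 and 615 CPM and the T127 pools 71.1, 148, 133 and 118, a ratio of 5.22-fold (4.17 to 6.61). The thinned share of these cells with a UMI was 62.0% (1374 of 2216) in T22 and 22.1% (19 of 86) in T127, so that both the level and the share differed, and among cells of at least 3000 UMIs the levels were 626 and 149.9 CPM. The list of T cells (Cd3e, Cd3d and Trac) stood at 1983 CPM in T22 and 1864 in T127 in this cluster, while the list of interleukin 17 genes (Il17a and Il23r) stood at 180.5 CPM in T22 and was not detected in T127, and the part of a different mix of T cells was not tested. In NK cells Cxcr6 was 101, 121, 128 and 122 CPM in T22 and 56.3, 25.0, 7.61 and 31.5 in T127, with the T-cell list at 298 and 112. The macrophage differences were small in level, 8.07, 10.6, 6.68 and 3.30 against 2.49, 0.791, 0.316 and 2.46 CPM in Macro-M2 and 21.5, 7.57, 3.07 and 1.37 against 0.935, 0, 0 and 0 in Macro-MKI67. In T22 these clusters held 0.310 and 0.321 Cxcr6 UMIs per UMI of the T-cell list, beside 0.103 in CD8_Tn-CCR7, 0.311 in CD4_Tcm-TCF7, 0.395 in NK cells and 0.552 in Tgd. In T127 the ratio was 0.218 in Macro-M2 and 0.0313 in Macro-MKI67, beside 0.0635 in CD4_Tcm-TCF7, 0.110 in regulatory T cells and 0.259 in NK cells. The list stood at 23.1 CPM in T22 and 7.10 in T127 Macro-M2, and the part of T-cell RNA in the macrophage values was not tested. Neither macrophage call held when cells were thinned, and that in Macro-MKI67 was also lost without the first T22 pool.

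Ccr6 showed its widest gap in CD4_Tcm-TCF7, with 50.3, 59.5, 69.8 and 55.6 CPM in the T22 and 0, 0, 6.35 and 0 CPM in the T127 pools, where a single UMI was counted, so that the ratio of 38.3-fold (6.86 to 1515) is poorly fixed from above. The log2 difference was 4.56, and 5.90 without the third T127 pool, which held that UMI. The list of Il17a and Il23r, given above, was detected with 2 of 2 genes in T22 (133 to 224 CPM over pools) and none of 2 in T127. In macrophages Ccr6 was 41.6, 32.3, 54.9 and 46.2 CPM in T22 against 18.6, 14.2, 17.4 and 22.7 in T127 Macro-M2 (2.38-fold, 2.03 to 2.80), and in CD16-CDKN1C 31.5, 32.4, 28.3 and 35.9 against 8.24, 26.2, 4.65 and 7.28 (2.90-fold, 1.90 to 4.67). In CD16-CDKN1C the log2 difference of 1.46 became 2.14 without the second T127 pool. CD14-PF4 went the other way, with 0, 13.6, 6.70 and 0 CPM in T22 and 14.6, 81.0, 16.2 and 16.4 in T127, from 3 and 18 UMIs. Its log2 difference of -2.37 became -3.28 without the second T22 pool and -1.77 without the second T127 pool. That cluster also held neutrophil genes at 4002 CPM in T22 and 1224 in T127, whose part was not tested. The call in CD16-CDKN1C was lost when cells were thinned, and those in CD16-CDKN1C and Macro-M2 with a pseudocount of 10 CPM.

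Cxcr3 was called in 2 macrophage clusters at low levels, 6.86, 7.52, 4.62 and 11.1 CPM in T22 against 1.11, 0.527, 0.947 and 2.46 in T127 Macro-M2 and 14.6, 10.1, 11.5 and 10.3 against 0, 0.816, 0.859 and 0 in Macro-MKI67. In T22 these clusters held 0.333 and 0.455 Cxcr3 UMIs per UMI of the T-cell list, beside 0.0292 to 0.0404 in the T-cell clusters and 0.161 in NK cells, and the part of RNA from other cells in the macrophage values was not tested. The call in Macro-M2 was lost when cells were thinned. In CD4_Tcm-TCF7 and NK cells Cxcr3 was not called, with ratios of 1.51-fold (1.06 to 2.26) and 1.14-fold (0.830 to 1.60).

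Cxcr4 differed in opposite directions in the 2 clusters where it was called. CD16-CDKN1C held 54.8, 62.1, 67.6 and 52.8 CPM in T22 and 229, 297, 269.6 and 253 in T127, 4.40-fold (3.95 to 4.90) higher in T127, and CD14-IL1B held 132, 109, 124 and 178 CPM in T22 and 74.3, 38.7, 27.2 and 30.7 in T127, 3.17-fold (2.55 to 3.97) higher in T22. CD16-CDKN1C cells were shallow in T22, where 60.9% had fewer than 3000 UMIs against 29.6% in T127. The Cxcr4 gap stood in deeper cells, 76.9 against 274 CPM, and in shallower ones, 17.5 against 163. The classical monocyte list, given above, was also higher in T127 in this cluster, and the dendritic list in CD14-IL1B stood at 1599 CPM in T22 and 1575 in T127. Their part in the Cxcr4 values was not tested. The call in CD14-IL1B was lost when cells were thinned, where the log2 difference was 1.28. In the other compared clusters Cxcr4 was not called, with ratios of T22 over T127 from 0.619-fold (0.484 to 0.786) in endothelial cells to 1.65-fold (1.41 to 1.93) in NK cells, leaving aside i_CAF with 19 and 26 UMIs.

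Ackr3 was higher in T127 in both stromal clusters. In i_CAF it was 55.8, 43.6, 114 and 43.0 CPM in T22 and 268, 265, 170.4 and 293 in T127 (3.78-fold higher, 3.32 to 4.30), and in endothelial cells 15.6, 43.7, 29.0 and 98.8 and 129.6, 124, 119.6 and 189 (2.53-fold, 1.79 to 3.64). The endothelial log2 difference of -1.32 became -2.14 without the fourth T22 pool, a wider move than the counting interval covers. In each cluster the highest T22 pool lay below the lowest T127 pool, with the third T22 pool of i_CAF well above the other T22 pools. Malign_0 cells of T127 held Ackr3, given above, and Dcn, a fibroblast gene, at 2579 CPM, and their part in the stromal values was not tested. The call in endothelial cells, which are few, was lost when cells were thinned or the top 5% of cells by UMIs left out.

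For Ccr1 and Ccr2, no cluster was called, but some stood apart by less than 2-fold. Ccr1 was higher in every T127 pool in Macro-M2, given above, and in CD16-CDKN1C (1.30-fold, 1.18 to 1.42), and higher in every T22 pool in Macro-others (1.40-fold, 1.29 to 1.53). Ccr2 was higher in every T22 pool in Macro-MKI67 (1.42-fold, 1.19 to 1.70) and NK cells (1.68-fold, 1.2 to 2.43), while in Macro-others, at 24.7, 28.5, 18.8 and 24.0 CPM in T22 and 64.6, 54.4, 59.0 and 22.5 in T127, the pools overlapped.

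The long-term pools hold both lines after 20 days and were captured apart from the short-term ones, so the levels are set side by side with time, mix of lines and capture not told apart. Of 61 receptor and cluster pairs at 5 CPM or more, the long-term pools lay below all short-term pools in 8 and above all in 2. Over all genes these shares were 9.04% and 2.17%. Of the 8, 6 were of Cxcr4. In NK cells Cxcr4 was 33.6 CPM (4.43 to 60.0) beside 288 in T22 and 175 in T127, in CD14-IL1B 12.8 CPM (7.49 to 20.3) beside 134 in T22 and 42.3 in T127, and in CD4_Tcm-TCF7 75.7 CPM (47.1 to 97.6) beside 306 and 379.6. Macro-M2, Macro-MKI67 and Macro-others had the same order. In the other 4 compared clusters the long-term pools overlapped the short-term ones. Cxcr4 was 54.3 CPM (44.7 to 73.4) beside 59.6 in T22 and 262 in T127 in CD16-CDKN1C, 42.8 CPM (7.02 to 129) beside 139 and 124 in CD14-PF4 and 123 CPM (38.8 to 191) beside 123 and 199 in endothelial cells, and it was low in i_CAF. Ccr2 was the other receptor that lay below, with 28.9 CPM (19.5 to 38.5) beside 71.8 in T22 and 59.2 in T127 in Macro-M2 and 25.0 CPM (19.3 to 27.4) beside 36.1 in T22 and 64.5 in T127 in CD16-CDKN1C. Ccr1 lay above both models in CD14-IL1B, 182 CPM (155 to 214) beside 42.2 in T22 and 93.4 in T127, and Ccr6 in CD16-CDKN1C, 43.5 CPM (36.0 to 47.8) beside 31.9 in T22 and 11 in T127. Hemoglobin RNA, listed in the opening, was higher in the long-term than in the T22 pools in these clusters, and its part was not tested.

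Cells with and without a receptor UMI inside 1 cluster were next compared for marker lists, at 3000 UMIs a cell and with the receptor left out of the list. Ccr6 and Cxcr6 marked the cells with interleukin 17 genes. In long-term CD4_Tcm-TCF7, the list of Il17a and Il23r stood at 804 against 101 CPM in the 56 cells with and the 457 without a Ccr6 UMI (7.98-fold), and in T22 at 561 against 97.5 CPM (5.76-fold). For Cxcr6 it stood at 345 against 2.66 CPM in long-term CD4_Tcm-TCF7, at 207 against 36.0 CPM in T22 and at 673 against 8.33 CPM in long-term Tgd. The cells without a Cxcr6 UMI thus held few interleukin 17 transcripts in the long-term pools and more in T22. With long-term pools 4 to 8 alone, the ratio for Cxcr6 in CD4_Tcm-TCF7 was 214 instead of 129.8, so its size rests on few UMIs in cells without the receptor.

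The CD14-IL1B cluster, which mixes monocyte and dendritic genes, split by receptor. Cells with a Ccr1 UMI held the dendritic list (Xcr1, Clec9a, Flt3, Zbtb46, Fscn1, Ccr7 and Ccl22) at 54.1 against 845 CPM in cells without one. Ccr6 gave the same order at 125 against 670.2 CPM, and Cxcr3 the opposite one at 849 against 554 CPM.

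In CD16-CDKN1C and Macro-M2 of the long-term pools, Ccr2 and Cx3cr1 marked opposite ends with respect to classical monocyte genes. In long-term CD16-CDKN1C the list stood at 3071 against 767 CPM with and without Ccr2 and at 309 against 1348 CPM with and without Cx3cr1. In Macro-M2 the pairs were 1319 against 379 CPM for Ccr2 and 78.3 against 663 CPM for Cx3cr1. For Cx3cr1 the order held in the short-term Macro-M2 cells, with 317 against 1099 CPM in T22 and 980.3 against 2274 CPM in T127. Cxcr4 went with Ccr2, most in T22, where CD16-CDKN1C cells with Cxcr4 held 1464 against 238 CPM (6.15-fold), against 1.90-fold long-term and 1.49-fold in T127.

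**Figure D5:**
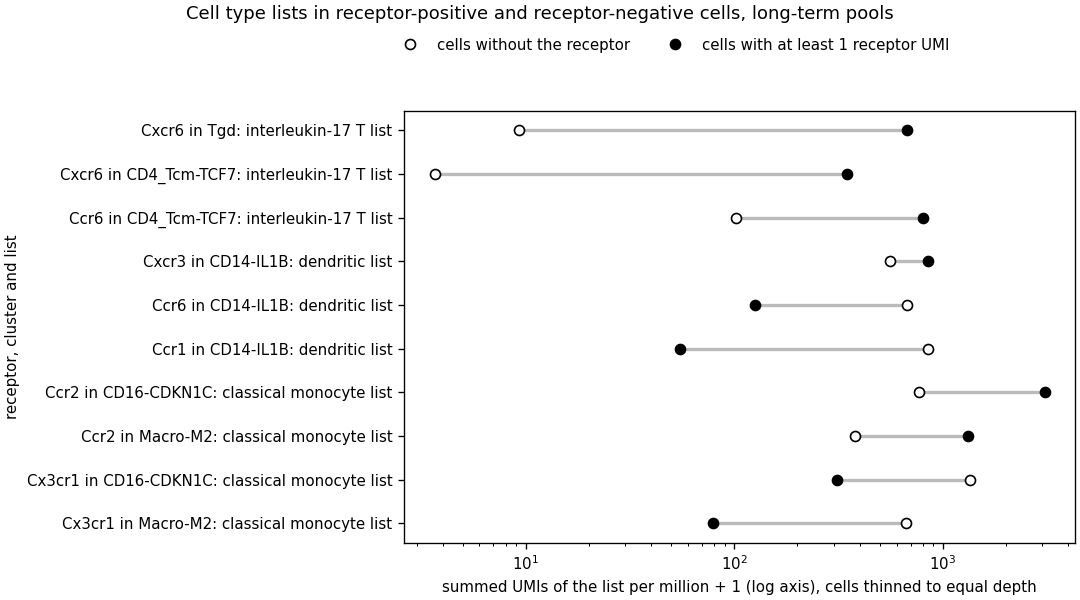
Summed level of marker lists (CPM, log axis) in long-term cells with a receptor UMI (filled) and cluster mates without one (open), each cell thinned to 3000 UMIs. Interleukin 17 genes are higher in cells with Ccr6 or Cxcr6, dendritic genes lower in CD14-IL1B cells with Ccr1 or Ccr6, and classical monocyte genes higher with Ccr2 and lower with Cx3cr1.

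Ccr2 and Cx3cr1 shared fewer cells than their shares would give in the larger long-term macrophage clusters and in CD16-CDKN1C there, and less clearly in the short-term pools. Thinned, 58 long-term Macro-M2 cells held both, where the product of the shares over all cells of the cluster gave 96.3, a quotient of 0.602 (0.424 to 0.846 over pools, 0.591 without thinning). With the product taken within each pool and then summed it was 96.2 cells and the quotient 0.603. CD16-CDKN1C gave 58 against 117 (0.496, and 0.650 for the same cells without thinning), Macro-others a quotient of 0.598 (0.291 to 0.785 over pools) and Macro-MKI67 0.416, from 5 cells. T22 Macro-M2 gave 43 against 65.1 (0.660, 0.849 without thinning). T127 Macro-M2 gave 15 against 23.8 (0.630, 0.978 without thinning), and in T22 the quotients of Macro-M1 and Macro-others were near 1, at 0.949 and 0.931. T127 CD16-CDKN1C gave 11 against 13.5 (0.815, pools from 0.652 to 1.36). In T22 CD16-CDKN1C the quotient was 0.783 in the 1643 cells of at least 3000 UMIs when thinned and 0.978 in the same cells without thinning, and 1.36 over all 4205 cells, most of which are shallower. Cxcr3 and Cxcr6 met at the product in T22 CD4_Tcm-TCF7 cells (231 against 230.0, 1.00), and Cxcr4 and Ackr3 in T127 endothelial cells somewhat above it (14 against 10.8, with pools from 0.967 to 1.64).

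How far a receptor keeps to few clusters was summarised by tau over the 21 long-term clusters, which is 0 for an even and 1 for a single-cluster gene. The median of the 9 receptors was 0.601, against 0.376 over 14452 genes with at least 100 UMIs. Cxcr2, with few UMIs, had the highest value at 0.866, then Ackr3 at 0.730 and Cxcr6 at 0.714, with Cxcr3 at 0.653, Cx3cr1 at 0.601, Ccr6 at 0.549, Ccr2 at 0.522, Ccr1 at 0.488 and Cxcr4 at 0.386.

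Across these clusters, which share libraries, the 3 genes most like each receptor by Pearson's r of log2(CPM + 1) were taken from 11794 genes of at least 10 CPM in a cluster. For Ccr1 they were Slc15a3 (0.97), Card9 (0.97) and E230029C05Rik (0.96), and for Cx3cr1 Tfec (0.98), Lst1 (0.97) and C1qb (0.97). For Ccr2 they were Klrk1 (0.95), Selplg (0.95) and Jaml (0.93), for Cxcr6 Icos (0.98), Tcrg-C2 (0.98) and Cd3g (0.98) and for Cxcr3 Klrd1 (0.89), Gm50394 (0.87) and Cd8a (0.87). Ccr6 gave Susd3 (0.94), Tlr1 (0.93) and Matk (0.92), Cxcr4 Elmo1 (0.93), Arhgap25 (0.93) and Gmfg (0.93), Ackr3 Plxna4 (0.91), Mtmr11 (0.89) and Fam102b (0.89) and Cxcr2, with its few UMIs, Xcr1 (0.87), Sept3 (0.76) and Cd80 (0.76). The list for Cxcr6 is of T-cell genes (Icos and Cd3g among them) and that for Cx3cr1 of macrophage genes such as C1qb, a complement subunit.

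Of 13 further chemokine receptors 8 reached 10 CPM in a ranked cluster. Ccr9 was highest in pDC, at 1159 CPM in the long-term and 1767 in the T127 pools, in the cells that also led for Ccr2 and Cxcr3 in the long-term pools. Ccrl2, an atypical receptor, led in Macro-M1 at 949 in the long-term, Macro-others at 618 in the T22 and Macro-M2 at 648 CPM in the T127 pools. Xcr1, the receptor of cross-presenting dendritic cells, led in CD14-IL1B at 186, 575 and 312 CPM in the long-term, T22 and T127 pools. Ccr7, which leads cells to lymph nodes, led in B cells at 409 in the long-term, CD14-PF4 at 456 in the T22 and CD4_Tcm-TCF7 at 463 CPM in the T127 pools. Cxcr5, the receptor toward B-cell follicles, was at 98.8 CPM in long-term B cells, beside Ccr6 and Cxcr4 there. Ccr8 led in regulatory T cells at 89.7 CPM long-term and 84.6 in T127, and Ccr4 and Ccr3 reached 36.0 and 19.8 CPM in T127 regulatory T cells. Ccr10, Cxcr1, Ackr1, Ackr2 and Ackr4 stayed below 10 CPM in every ranked cluster.

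Some ligands were highest in other cells than their receptors and some in the same ones. Cxcl12, for Cxcr4 and Ackr3, was highest in endothelial cells, at 637, 379 and 123 CPM in the long-term, T22 and T127 pools, which themselves held both receptors. Cxcl16, for Cxcr6, was highest in Macro-M1 at 783 in the long-term, Macro-others at 861 in the T22 and CD16-CDKN1C at 515 CPM in the T127 pools. Cx3cl1, for Cx3cr1, was highest in Malign_2 at 66.2 in the long-term, Malign_2 at 89.6 in the T22 and i_CAF at 41.5 CPM in the T127 pools.

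Ccl2, for Ccr2, was highest in i_CAF at 1022 in the long-term, i_CAF at 889 in the T22 and Macro-M2 at 1259.6 CPM in the T127 pools, and Ccl7, which Ccr1 and Ccr2 share, in i_CAF at 1260.4 CPM in the long-term pools. Of the Ccr1 ligands, Ccl6 was at 2003 CPM in long-term Macro-M2, so that ligand and receptor lay in 1 cluster. The Cxcr3 ligand Cxcl9 was highest in Macro-M1 at 159 in the long-term, i_CAF at 347 in the T22 and endothelial cells at 238 CPM in the T127 pools, and Cxcl10 in Macro-M1 at 522 in the long-term, Macro-MKI67 at 457 in the T22 and regulatory T cells at 324 CPM in the T127 pools. Of the Cxcr2 ligands, Cxcl2 was highest in Macro-M1 at 3866 in the long-term, Macro-others at 3204 in the T22 and Macro-M2 at 4337 CPM in the T127 pools, and Cxcl1 stood at 1038 CPM in long-term i_CAF. Ccl20, for Ccr6, reached 18 CPM in long-term Malign_3, its highest cluster there.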

How the data were processed

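Dissociated tumors were tagged with multiplexing oligos, cleared of dead cells and captured with a droplet-based 3′ chemistry. Per the submitters' processing notes, reads were processed with Cell Ranger 6.0.0 on GRCm38. The authors removed cells of low quality and doublets, and deposited, for every cell, raw UMI counts per gene and a cluster name, which were used as they stand. Normalized values and embeddings deposited beside them were not used, and doublets were not called again.

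From the deposited counts, UMIs were summed per cluster, experiment and pool and given per 1000000 (CPM). Of long-term barcodes found in several pools, the deepest copy was kept. Pools then held 32298013 to 55600377 UMIs. Intervals at 95% are exact Poisson for levels, Clopper-Pearson for shares and conditional binomial for ratios. For shares, cells were thinned at random to 3000 UMIs and shallower cells left out. Without replicates tied to tumors, no test was run. Calls between T22 and T127 need 2-fold on log2(CPM + 1), a pseudocount that understates changes at low levels, 5 CPM in either model and pools that do not overlap. The receptors and all lists were chosen with earlier results of these data known. Named are the 9 receptors, other chemokine receptors of at least 10 CPM in a ranked cluster, ligands by their highest cluster, the 3 genes most correlated with each receptor, and cell type markers. A member each of the list of other receptors and of the list for T cells that make interleukin 17 is not reported here and was left out of the sums. The calling procedure was tested on simulated data. Alternatives were other depths, cell filters, pseudocounts, thresholds, weights and pools, and, chosen after seeing the data, long-term pools 4 to 8 only and co-detection without thinning in cells of at least 3000 UMIs. Figures were drawn with matplotlib 3.10.9 and values computed with scipy 1.17.1, pandas 2.3.3 and numpy 2.4.6 under Python 3.11.15.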

Additional observations from a re-analysis of the deposited data

Results flagged for a closer look

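Of 27 groups of pools checked for a single value far from the rest, 1 was marked, and chance marks about 1 in 20 such groups. It was Ccr6 in long-term B cells, which was 0 in pool 4 (5 B cells) while the other 7 pools held 102 CPM or more.

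For Ccr6 and Cxcr4 the direction between the short-term models changed with the cluster, every T22 pool lying above every T127 pool in some clusters and below in others. The log2 difference of T22 over T127 for Ccr6 was 1.46 in CD16-CDKN1C, 4.56 in CD4_Tcm-TCF7 and 1.21 in Macro-M2, but -2.37 in CD14-PF4. For Cxcr4 it was 1.64 in CD14-IL1B and -2.12 in CD16-CDKN1C. The difference between clusters was not tested.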

How the results depend on the processing

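No paired analysis was possible because the pools of the models are separate captures whose numbers tie no samples together, and no result comes from a test. No direction between T22 and T127 reversed under any alternative listed here. The quotient of cells with both Ccr2 and Cx3cr1 in T22 CD16-CDKN1C, 0.783 when thinned, was 1.36 over all cells without thinning, which also adds the cells below 3000 UMIs, but 0.978 without thinning in the same cells. In long-term CD16-CDKN1C these values were 0.779 and 0.650. In Macro-M2 of T22 and T127, where no cells are added, it moved to 0.849 and 0.978, and that of Cxcr3 with Cxcr6 in T22 CD4_Tcm-TCF7 to 1.08 over all cells. The shares with a UMI follow depth. Without thinning and at 2000 UMIs they were 83.6% and 42.5% for Ccr1 in Macro-M2, 35.9% and 16.4% for Ccr2 in pDC, 4.04% and 0.448% for Cxcr2 in CD14-IL1B, 48.2% and 26.1% for Cxcr3 in pDC, 75.8% and 39.2% for Cx3cr1 in Macro-others, and 52.1% and 25.7% for Ackr3 in i_CAF, and at 2000 UMIs 71.9% for Cxcr6 in Tgd. Long-term Cxcr4 in B cells was 86.7 CPM in cells of at least 1000 genes and 90.9 CPM thinned, so that B cells, endothelial cells and regulatory T cells share the first place for Cxcr4. In 144 combinations of receptor and setting, all in the long-term pools, the highest cluster was the same in 140, and the other 4 were all of Cxcr4. Several of these settings only leave pools out of the same cells, so that little change could arise. In the short-term pools the highest ranked cluster was another one for some receptors, as given above for Ccr2 and, in T127, for Cx3cr1. Median tau was 0.714 with a pseudocount of 10 CPM and 0.544 in T22, where that of all genes also moved, to 0.539 and 0.314. Spearman's rho shared 6 of 27 most alike genes.

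With each pool left out in turn, levels ran from 317 to 325 CPM for Ccr1 in Macro-M2, 82.3 to 98.3 for Ccr2 in pDC, 127.2 to 141 for Ccr6 in B cells, 3.32 to 5.41 for Cxcr2 in CD14-IL1B, 164 to 186 for Cxcr3 in pDC, 129 to 138 for Cxcr4 in B cells, 1096 to 1234 for Cxcr6 in Tgd, 269 to 282 for Cx3cr1 in Macro-others and 191 to 208 for Ackr3 in i_CAF, median tau from 0.589 to 0.615, and the calls between T22 and T127 from 21 to 24 (12.0% to 12.9% of all gene and cluster pairs). The 21 calls became 25 at 1.5-fold (19.5% of all pairs) and 25 at 1 CPM (11.3%), 15 with a pseudocount of 10 CPM (6.02%), 15 thinned (9.56%, 14 of the 15 shared) and 20 without the top 5% of cells (11.3%). No longer called when thinned were Cxcr4 and Cx3cr1 in CD14-IL1B, Ccr6 in CD16-CDKN1C, Ackr3 in endothelial cells, and Cxcr3 and Cxcr6 in Macro-M2 and Cxcr6 in Macro-MKI67, the last also without T22 pool 1 (log2 1.96). Of these Cxcr6 in Macro-M2 fell to a log2 difference of 0.37. A pseudocount of 10 CPM ended the calls of Ccr6 in CD16-CDKN1C and Macro-M2, Cxcr3 and Cxcr6 in Macro-M2, Cxcr6 in Macro-MKI67 and Cx3cr1 in NK cells. Leaving out the top 5% of cells ended those of Cx3cr1 in CD14-IL1B, Ackr3 in endothelial cells and Cxcr6 in Macro-M2. Leaving out 1 pool moved the called ratio by over 1.5 times for Ackr3 in endothelial cells (4.42-fold without T22 pool 4), Ccr6 in CD14-PF4 (9.74 without T22 pool 2 and 3.40 without T127 pool 2, instead of 5.18), in CD16-CDKN1C (4.40 without T127 pool 2, instead of 2.74) and in CD4_Tcm-TCF7 (59.9 without T127 pool 3, instead of 23.6), Cx3cr1 in CD14-IL1B (4.09 without T22 pool 3, instead of 6.75) and Cxcr6 in Macro-MKI67 (3.90 without T22 pool 1, instead of 7.46), all on the CPM + 1 scale. The causes were not tested.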
